A study of Mus musculus with 4 samples.

Results

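Polyamine synthesis was examined through 10 genes in unpolarized mouse CD4 T cells with and without retroviral *Tox*. The genes were chosen by name, with earlier results of these data known. They encode the enzymes that make putrescine, spermidine and spermine (*Odc1*, *Amd1*, *Srm*, *Sms*), the antizymes that restrain ornithine decarboxylase together with a pseudogene copy (*Oaz1*, *Oaz2*, *Oaz1-ps*), the inhibitor of the antizymes (*Azin1*) and 2 enzymes that break polyamines down (*Sat1*, *Smox*). All 10 were among the 24369 genes listed for each library, and all 10 passed the filter on low counts, which left 14143 genes, *Oaz1-ps* through its EV RV counts alone. None passed an adjusted p of 0.05 between Tox RV and EV RV in edgeR's quasi-likelihood test. Nor did any other of the 14143 genes tested in edgeR, *Tox* among them. With DESeq2, the tool the methods name, 22 of them passed, *Oaz1-ps* among these. The paper, which used DESeq2, lists *Tox* among the genes raised by Tox RV. The widest contrast was in *Oaz1-ps*, which had reads in both EV RV libraries and was listed at 0 in both Tox RV libraries.

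RNA-seq was carried out on CD4 T cells from the spleen of wild-type (WT) mice. Naive cells were activated without polarizing cytokines, with antibodies to CD3 and CD28 and with IL-2. They were transduced on day 2, restimulated on day 5 and then sorted for GFP. For the restimulation the methods name biotinylated anti-CD3 plus streptavidin, over 5 hours, whereas the paper's results name anti-CD3 and anti-CD28. The EV RV group (2 libraries) received MSCV-IRES-eGFP, which carries GFP alone, and the Tox RV group (2 libraries) received MSCV-Tox-IRES-eGFP, so that both groups carried a retrovirus and GFP, and *Tox* was driven by the viral vector rather than by its own locus. Each group represented 2 mice, so p-values measure the spread between these samples, and the age of the mice for this experiment is not given in the sources used here.

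Ornithine decarboxylase turns ornithine into putrescine, the first step committed to polyamines, and S-adenosylmethionine decarboxylase supplies the aminopropyl groups that spermidine synthase and spermine synthase add in turn. Antizyme binds ornithine decarboxylase and sends it to the proteasome without ubiquitin. Its own translation needs ribosomes to shift frame at an internal stop codon, which polyamines promote, and antizyme inhibitor, a relative of ornithine decarboxylase without its activity, binds antizyme in its place. Lymphocytes raise polyamine synthesis when they are activated. All of this control by antizyme acts on protein, whereas the values here are RNA.

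*Oaz1* and its pseudogene are shown first, because the result on *Oaz1-ps* rests on telling them apart. *Oaz1* lies at chr10:80826656-80829290 on the plus strand of GRCm38 (mm10), and *Oaz1-ps* is annotated in GENCODE M21 as a processed pseudogene at chr17:17345456-17346140 on the minus strand. Over the 685 bases from the *Oaz1* start codon to its last stop codon, the pair was identical at 684 bases and differed at 1. The main annotated *Oaz1* transcript skips sequence at the frameshift site, which was filled in here from a second annotated transcript, and as annotated an alignment of the pair gave 99.7% identity. The difference was G125C, with *Oaz1*'s base first and positions counted from 1 at the A of its start codon, in coding exon 1 of *Oaz1*. The bases around it are printed with the differing base in capitals, from chr10:80826870-80826898 on the plus strand and chr17:17346002-17346030 on the minus strand.
Oaz1: tagtcagcacagccGcggcggctgcagca
Oaz1-ps: tagtcagcacagccCcggcggctgcagca

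The stop codon at which the ribosome shifts frame was present in both copies and in *Oaz2* (chr9:65668001-65690300, plus strand). It is shown in capitals, from chr10:80828277-80828312 on the plus strand, chr17:17345919-17345954 on the minus strand and chr9:65686254-65686289 on the plus strand, to show how alike the antizymes are at this site.
Oaz1: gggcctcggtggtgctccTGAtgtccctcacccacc
Oaz1-ps: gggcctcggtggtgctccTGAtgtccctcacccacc
Oaz2: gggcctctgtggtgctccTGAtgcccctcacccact
The windows of *Oaz1* and *Oaz2* shared 33 of 36 bases. In *Oaz1* and in *Oaz1-ps* alike, 68 codons preceded this TGA, and skipping 1 base opened a further 159 codons up to a TAG. The frame was thus intact in the DNA of the pseudogene. The transcript that the deposited files used for *Oaz1-ps* was 963 bases long, so it also held bases outside the stretch compared.

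Depth ranged from 46989997 expected counts (EV RV replicate 1) to 74548723 (EV RV replicate 2), with 61442264 and 49012254 for Tox RV replicates 1 and 2. *Rn45s*, the ribosomal RNA precursor, took 7.14% to 24.7% of them, the most in EV RV replicate 1. *Tox*, which checks the labels, was at 11.7 and 5.73 CPM (counts per 1000000, scaled by edgeR's TMM method) in EV RV and at 121 and 99.9 CPM in Tox RV, a log2 fold change of 3.68 (SE 0.38, edgeR adjusted p = 0.490). Across all genes tested, 0.0% passed an adjusted p of 0.05, in either direction, higher or lower. All 6 T cell markers were detected, at 1359 to 1954 CPM in all, while B cell and myeloid markers summed to at most 2.18 CPM, with *Ms4a1* and *Lyz2* at or below 3 counts in each library. NK cell markers summed to 52.0 and 12.6 CPM in EV RV and to 28.1 and 7.04 CPM in Tox RV. The part of these markers in the results was not tested.

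Levels of the 10 genes were compared with each other in TPM (transcripts per 1000000), which allow for transcript length. *Oaz1* was highest, at 387 to 504 TPM over the 4 libraries, and *Odc1* came next at 261 to 322 TPM. *Srm* followed at 137 to 164 TPM. These top 3 did not overlap each other or any other gene of the set. Below them *Amd1* was at 49.4 to 87.1 TPM, *Azin1* at 34.3 to 55.0 TPM and *Sms* at 42.0 to 52.7 TPM, and each overlapped the next in this order. *Sat1*, at 35.0 to 42.9 TPM, lay within the range of *Azin1* and overlapped *Sms* at its upper end. *Smox* (13.7 to 18.1 TPM) and *Oaz2* (12.7 to 15.4 TPM) overlapped each other and no other gene, and *Oaz1-ps* was last, at 0 to 10.3 TPM. The messages for antizyme 1 and for the enzyme it restrains were thus the most abundant of the set in each library. Together the 10 genes came to 1139 and 1194 TPM in EV RV and 1060 and 1084 TPM in Tox RV.

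**Figure D1:**
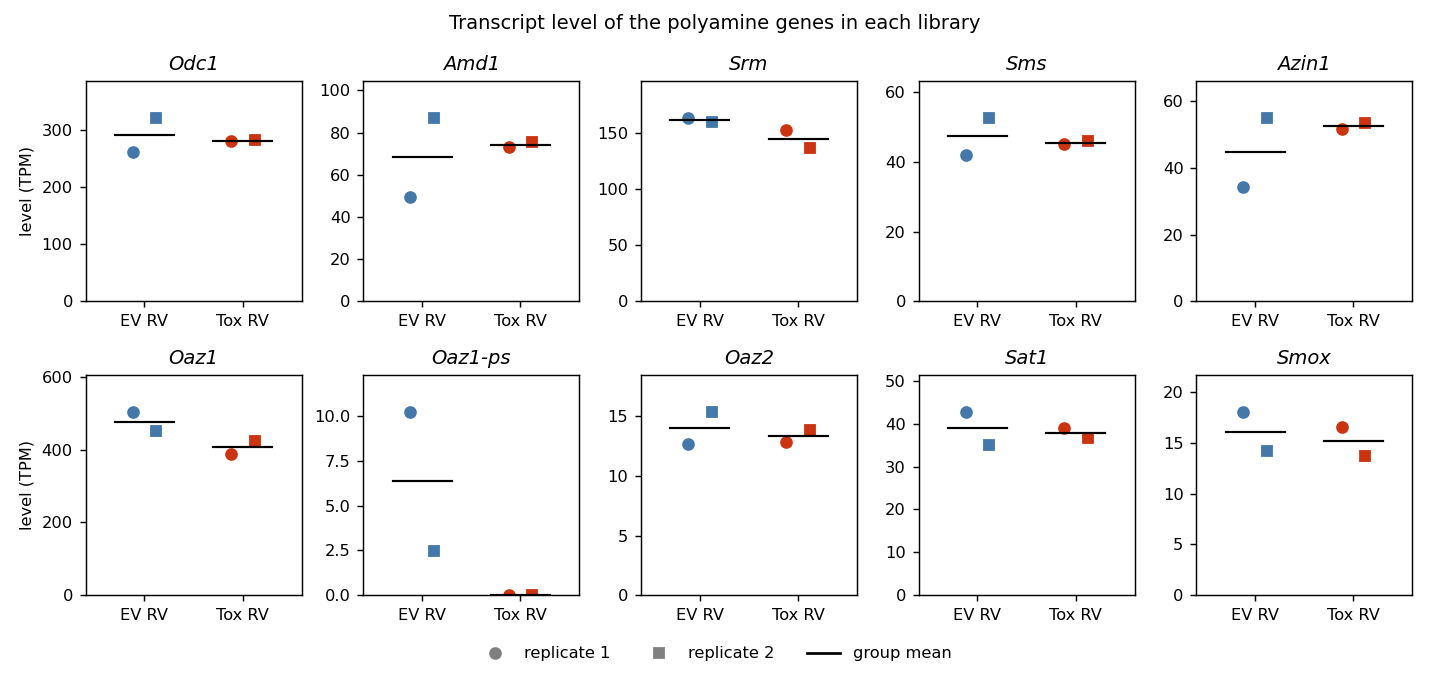
TPM of each of the 10 genes in each library, 1 panel a gene with its own axis from 0, EV RV and Tox RV replicates as points and the group mean as a bar. For *Oaz1* both Tox RV points (387 and 424 TPM) lie below both EV RV points (504 and 450 TPM), and the groups also do not overlap for *Oaz1-ps* and *Srm* on this scale. The share of all genes without overlap was not computed in TPM.

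*Odc1* (chr12:17544794-17551505, plus strand), the gene for ornithine decarboxylase, was at 375 and 487 CPM in EV RV and at 438 and 442 CPM in Tox RV. Both Tox RV libraries lay between the EV RV libraries, and the Tox RV pair was far closer together. The means were 431 ± 78.9 CPM in EV RV and 440 ± 3.11 CPM in Tox RV (SD, n = 2). The log2 fold change was 0.030 (SE 0.19, 95% interval -0.44 to 0.50, edgeR adjusted p = 0.981). The interval leaves room for a change of about 0.737-fold to 1.42-fold.

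*Amd1* (chr10:40287458-40302186, minus strand) encodes S-adenosylmethionine decarboxylase. It was at 90.4 and 168 CPM in EV RV and at 146 and 150 CPM in Tox RV. EV RV replicate 1 was the lowest and EV RV replicate 2 the highest of the 4. The log2 fold change was 0.20 (SE 0.30, 95% interval -0.56 to 0.95, edgeR adjusted p = 0.917). It was 0.71 without EV RV replicate 2 and -0.19 without EV RV replicate 1, so its direction rested on EV RV replicate 1. A single-exon copy, *Amd2*, matched *Amd1* at 3188 of 3202 aligned bases, and the division of reads between them is uncertain. With *Amd1* and *Amd2* summed, a choice made after seeing the data, the log2 fold change was also 0.20 (SE 0.29, adjusted p = 0.913).

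The aminopropyl transferases followed. *Srm*, which encodes spermidine synthase (chr4:148591503-148594993, plus strand), was at 116 and 119 CPM in EV RV and 118 and 105 CPM in Tox RV. Tox RV replicate 2 was the lowest library, and the other 3 lay within a few CPM of each other. Its log2 fold change was -0.077 (SE 0.16, 95% interval -0.48 to 0.33, edgeR adjusted p = 0.936). In TPM, which is scaled differently from CPM, its libraries did not overlap, at 164 and 160 TPM for EV RV against 153 and 137 TPM for Tox RV. How many of all genes do the same in TPM was not computed. *Sms*, which encodes spermine synthase (chrX:157443855-157492287, minus strand), was at 81.0 and 107 CPM in EV RV and at 94.7 and 96.3 CPM in Tox RV. As for *Odc1*, the Tox RV libraries lay inside the EV RV range. Its log2 fold change was 0.021 (SE 0.20, 95% interval -0.46 to 0.51, adjusted p = 0.989). The TPM ratio of *Srm* to *Sms* was 3.91 and 3.04 in the EV RV libraries against 3.40 and 2.98 in the Tox RV libraries, which overlapped.

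*Oaz1*, the gene for antizyme 1, was at 284 and 267 CPM in EV RV and at 237 and 260 CPM in Tox RV. Both Tox RV libraries were below both EV RV libraries, as for 17.4% of all genes tested. The gap between the nearest libraries of the groups was smaller than the gap between replicates in either group. The means were 275.6 ± 12.3 CPM in EV RV and 248.5 ± 15.8 CPM in Tox RV (SD, n = 2), and the log2 fold change was -0.15 (SE 0.16, 95% interval -0.55 to 0.25, edgeR adjusted p = 0.902). The interval spans 0.682-fold to 1.19-fold.

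*Oaz1-ps* was at 5.00 and 1.27 CPM in EV RV and at 0 in both Tox RV libraries. These stand for 210.64 expected counts in EV RV replicate 1 and 97.09 in replicate 2. The EV RV replicates differed from each other 3.92-fold. RSEM, the program that estimated the counts, divides reads that match both *Oaz1* and *Oaz1-ps* between them. Taken as counts, RSEM's estimates of *Oaz1-ps* were at least 59.6-fold lower in Tox RV, against a floor of 3 counts in each Tox RV library. With EV RV replicate 2 alone they were at least 24.2-fold lower. The floor allows for counting error and not for how shared reads were divided, so it sets no bound on the transcript. The fitted log2 fold change was -10.50 (SE 1.55, edgeR adjusted p = 0.897), a value that depends on how the fit treats counts of 0 and is no bound. Because *Oaz1-ps* entered the test only through the group where it had reads, its p-values are given as a description and mark nothing out. Its unadjusted p was under 0.05, as was that of 3.62% of all genes tested (1.07% higher and 2.55% lower), and the other 9 genes were above that value. With DESeq2, the tool the methods name, its adjusted p was 1.49e-06, and 0.156% of all genes tested passed. Of the 11 alternatives it passed in 6, and in the other 5 the adjusted p ran from 0.271, without EV RV replicate 1, to 0.911.

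As a share of the counts of the pair, *Oaz1-ps* took 1.73% of 12205 counts in EV RV replicate 1 (95% Wilson interval 1.51% to 1.98%) and 0.475% of 20407 in EV RV replicate 2 (0.390% to 0.579%). It took 0 of 15018 counts in Tox RV replicate 1 and 0 of 13472 in Tox RV replicate 2. By the floor of 3 counts these allow shares of up to 0.0200% and 0.0223%, and by the upper Wilson limit 0.0256% and 0.0285%. These intervals and limits cover counting error only, and they treat RSEM's estimates as counts. In TPM the share was 1.99% and 0.551% in EV RV and 0 in Tox RV, a difference in means of -1.27 percentage points (exact two-sided permutation p = 0.333, the smallest that 2 against 2 libraries allow).

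The sum of *Oaz1* and *Oaz1-ps* does not depend on how their shared reads were divided. It was 289 and 268 CPM in EV RV and 237 and 260 CPM in Tox RV. The log2 fold change of the sum was -0.17 (SE 0.16, 95% interval -0.57 to 0.24, edgeR adjusted p = 0.897). This lay close to the -0.15 of *Oaz1* alone. The groups did not overlap in the sum, with Tox RV lower, as for 17.4% of all genes tested. Since *Oaz1* held nearly all counts of the pair, the sum mostly repeats *Oaz1* and is no separate result.

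**Figure D2:**
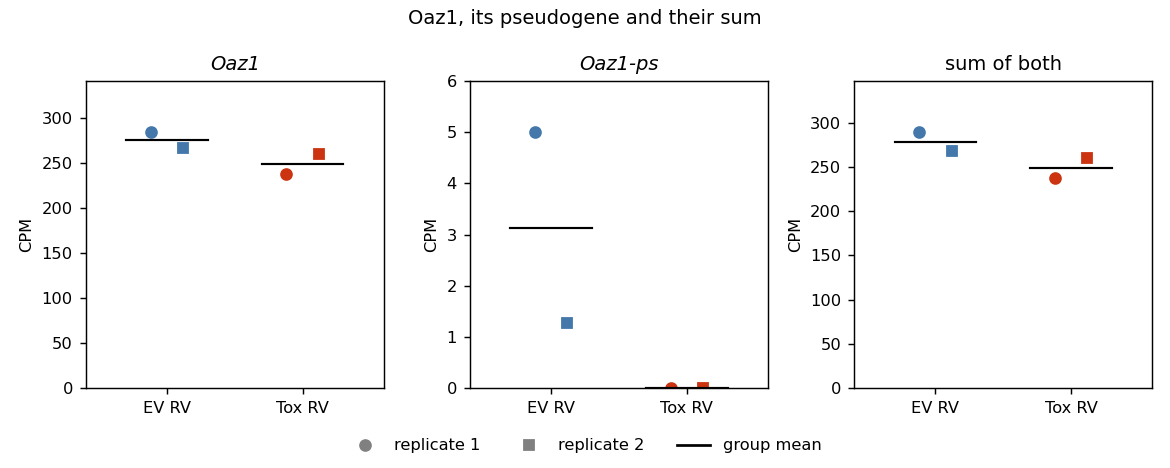
CPM of *Oaz1*, of *Oaz1-ps* and of their sum in each library, with the group mean as a bar. Both Tox RV libraries lie below both EV RV libraries in all 3 panels, and *Oaz1-ps* is at 5.00 and 1.27 CPM in EV RV and at 0 in Tox RV. Over all genes tested, 17.4% were lower in Tox RV without overlap, and the sum is nearly all *Oaz1*.

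*Oaz2*, the second antizyme gene, was at 13.0 and 16.6 CPM in EV RV and at 14.3 and 15.4 CPM in Tox RV. The Tox RV libraries lay between the EV RV libraries, and both groups had a mean of 14.8 CPM. The 95% interval of its log2 fold change ran from -0.51 to 0.51 (SE 0.21, edgeR adjusted p = 1.00). By TPM it made up 2.41% to 3.30% of the antizyme messages, so *Oaz1* was nearly all of the sum. *Azin1* (chr15:38487427-38519266, minus strand), the antizyme inhibitor, was at 98.1 and 165 CPM in EV RV and at 161 and 166 CPM in Tox RV. EV RV replicate 1 stood below the other 3 libraries, which lay close together. The log2 fold change was 0.31 (SE 0.27, 95% interval -0.36 to 0.98, edgeR adjusted p = 0.897), the largest of the 9 genes other than *Oaz1-ps* in size. It was 0.74 without EV RV replicate 2 and -0.025 without EV RV replicate 1.

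*Odc1* was set against its antizymes within each library, by TPM, since a ratio within a library does not depend on how libraries are scaled. *Odc1* over the sum of *Oaz1*, *Oaz1-ps* and *Oaz2* was 0.496 and 0.689 in the EV RV libraries against 0.702 and 0.648 in the Tox RV libraries. EV RV replicate 1 had the lowest ratio, and the other 3 overlapped across the groups. On the log2 scale the means were -0.77 ± 0.34 in EV RV and -0.57 ± 0.081 in Tox RV (SD, n = 2), a difference of 0.21 (exact two-sided permutation p = 0.667). Without EV RV replicate 1 the difference was -0.032.

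Both catabolic genes had a lower mean TPM than each of the synthetic enzymes. *Sat1* (chrX:155213132-155216449, minus strand) encodes spermidine/spermine acetyltransferase, which marks polyamines for export or oxidation. It was at 27.2 and 22.9 CPM in EV RV and at 26.7 and 25.1 CPM in Tox RV. The Tox RV libraries again lay inside the EV RV range. The log2 fold change was 0.049 (SE 0.18, 95% interval -0.40 to 0.50, edgeR adjusted p = 0.964). *Smox* (chr2:131491496-131525922, plus strand) encodes spermine oxidase, which turns spermine back into spermidine. It was at 17.4 and 14.5 CPM in EV RV and at 17.8 and 14.6 CPM in Tox RV. Replicate 1 was above replicate 2 in both groups by more than the group means differed, and the log2 fold change was 0.023 (SE 0.21, 95% interval -0.48 to 0.53, adjusted p = 0.989).

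Of the 10 genes, 2 did not overlap between the groups in CPM, *Oaz1* and *Oaz1-ps*, both lower in Tox RV, and 8 overlapped. Over all genes tested 36.0% did not overlap, 18.6% higher and 17.4% lower in Tox RV. Over the 10 genes the log2 fold changes had a median of 0.022, against 0.0036 over all genes tested. In size, the median over all genes was 0.21, and only *Oaz1-ps* and *Azin1* exceeded it.

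**Figure D3:**
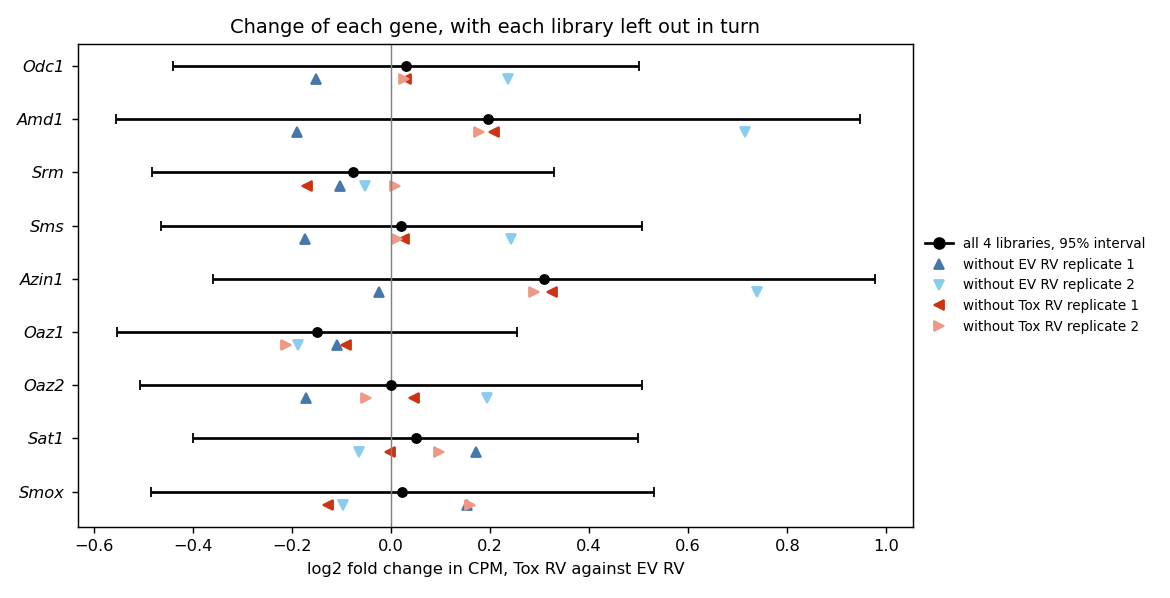
Log2 fold change in CPM of Tox RV against EV RV for 9 genes, with the 95% interval as a bar and the value with each library left out as a mark; *Oaz1-ps* is not drawn because its fit is against 0. Each interval spans 0, and the marks for *Amd1* run from -0.19 to 0.71 and those for *Azin1* from -0.025 to 0.74.

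Much of the spread lay between the EV RV libraries. *Odc1*, *Oaz2*, *Azin1*, *Amd1* and *Sms* were lowest in EV RV replicate 1, which makes 5 of the 10 genes, beside 37.0% of all genes tested. The EV RV replicates were further apart than the Tox RV replicates in 7 of 10 genes, beside 72.4% of all genes. On the log2 scale, EV RV replicate 1 minus replicate 2 was -0.89 for *Amd1*, -0.75 for *Azin1*, -0.40 for *Sms*, -0.38 for *Odc1* and -0.35 for *Oaz2*. In Tox RV the difference was -0.11 for *Oaz2* and between -0.05 and -0.01 for the other 4. *Srm* differed by -0.04 between the EV RV libraries. EV RV replicate 1 also held the largest share of *Rn45s* and the highest sum of NK cell markers. Whether those bear on these genes was not tested. In libraries from bulk samples, fewer cells of a type and less RNA per cell cannot be told apart.

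**Figure D4:**
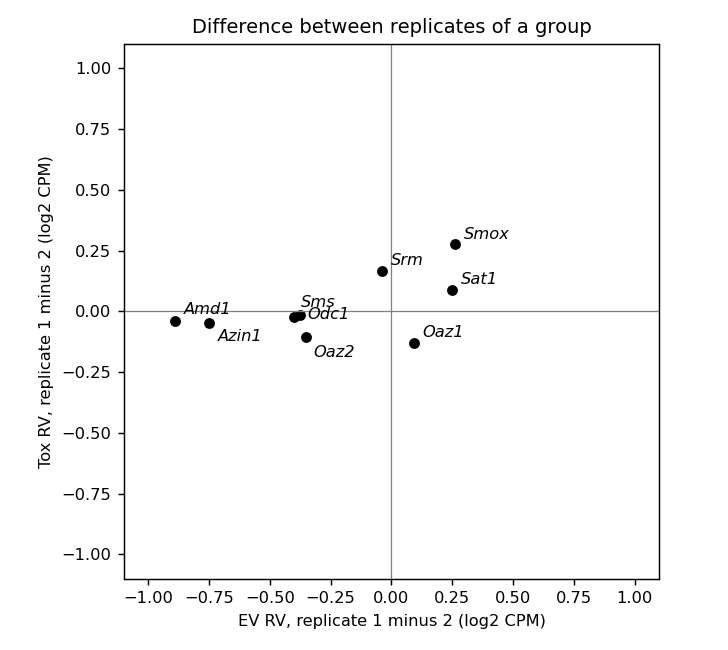
Difference between replicate 1 and replicate 2 in log2 CPM, EV RV on the horizontal axis and Tox RV on the vertical axis, 1 point a gene, without *Oaz1-ps*. *Amd1* (-0.89) and *Azin1* (-0.75) lie farthest to the left, while all 9 genes lie between -0.13 and 0.28 on the vertical axis.

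The order of the libraries for *Odc1* was compared with that of the other 14142 genes tested, by the distance between log2 CPM values centred on each gene's mean over the 4 libraries. Among the nearest were *Sms* (0.0216), *Gm16973* (0.0220), *Atp9a* (0.0220) and *Slc35b2* (0.0259). Of the polyamine genes *Sms* was thus the nearest to *Odc1*, and *Oaz2* was at rank 89 of 14142. The rest were far from it, with *Srm* at rank 3469, *Oaz1* at 5389, *Azin1* at 5796 and *Amd1* at 6034. *Sat1* was at rank 6374, *Smox* at 7114 and *Oaz1-ps* at 14141. With 4 libraries that share their depth and composition, such a distance is a description. The TPM ratio of *Odc1* to *Azin1* was 7.62 and 5.86 in the EV RV libraries against 5.43 and 5.31 in the Tox RV libraries. This ratio was lower with Tox RV, but the EV RV replicates differed by more than the gap between the groups. That of *Odc1* to *Amd1* was 5.29 and 3.70 for EV RV against 3.83 and 3.77 for Tox RV, which overlapped.

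A further 29 genes of the polyamine pathway were read from the same fit, and 25 of them passed the filter on low counts. None passed an adjusted p of 0.05, nor did any of the 14143 genes tested, and their median log2 fold change was -0.0026. The groups did not overlap for 9 of the 25, a total close to the 36.0% of all genes tested. By direction, 2 of the 25 were higher and 7 lower, beside 18.6% higher and 17.4% lower over all genes. Whether this split differs from that of all genes was not tested. Of these 9, *Mri1* and *Amd2* were higher and *Aldh18a1*, *Slc7a1*, *Adi1*, *Slc3a2*, *Slc18b1*, *Eif5a* and *Myc* were lower in Tox RV, and the other 16 genes overlapped. *Agmat*, *Sat2*, *Satl1* and *Oaz3* were not tested. *Oaz3*, the germ cell antizyme, had 4 to 9.99 expected counts a library.

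*Myc*, a transcriptional activator of *Odc1*, was at 226 and 166 CPM in EV RV and at 147 and 117 CPM in Tox RV. Both Tox RV libraries were below both EV RV libraries, while *Odc1* had no such order. The log2 fold change of *Myc* was -0.57 (SE 0.23, 95% interval -1.13 to -0.0098, edgeR adjusted p = 0.897). *Myc* was the only gene of the list with an unadjusted p under 0.05, beside 3.62% of all genes tested (2.55% lower). Its log2 fold change ranged from -0.77 without EV RV replicate 2 to -0.33 without EV RV replicate 1. As its groups did not overlap, leaving 1 library out could hardly change the sign.

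*Eif5a*, whose protein carries hypusine made from spermidine, was the most abundant gene of the list, at 793 and 734 CPM in EV RV and 679 and 668 CPM in Tox RV. Its groups did not overlap, and the log2 fold change was -0.18 (SE 0.16, edgeR adjusted p = 0.897). *Slc3a2*, part of amino acid transporters and linked to polyamine export, was at 178 and 175 CPM in EV RV and 167 and 141 CPM in Tox RV, with a log2 fold change of -0.20 (SE 0.17). *Aldh18a1*, on the route to ornithine from glutamate, was at 119 and 126 CPM in EV RV and 111 and 103 CPM in Tox RV, with a log2 fold change of -0.20 (SE 0.16). *Mat2a* and *Mat2b*, which encode the subunits of the S-adenosylmethionine synthetase of most tissues, had log2 fold changes of 0.081 (SE 0.21) and -0.036 (SE 0.22), with overlapping groups.

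**Figure D5:**
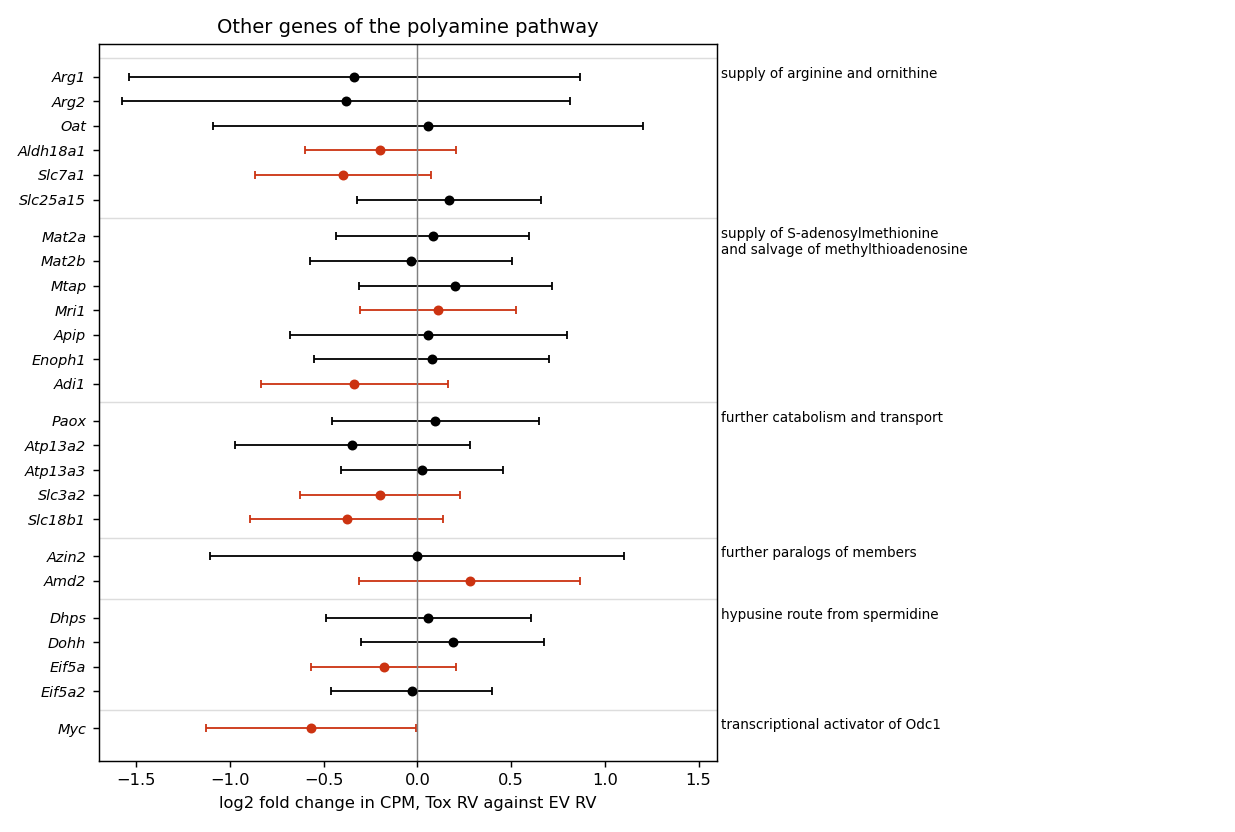
Log2 fold change in CPM of Tox RV against EV RV for the 25 pathway genes tested, with 95% intervals as bars, in red where the groups did not overlap. *Myc* is at -0.57, with an interval that ends just below 0, and the other intervals span 0.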

How the data were processed

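RNA-seq libraries were assigned to EV RV (2) or Tox RV (2) and given replicate numbers from the sample labels. Per the methods and the labels, the authors checked reads with FastQC, aligned them with Bowtie (the submitters' notes also name Bowtie2) to mm10 and quantified genes with RSEM, with 1 library a file. The deposited expected counts are RSEM estimates, not normalized. The deposited TPM values are RSEM's transcripts per 1000000, the total of a library. The deposited FPKM values and a table of the whole series were not used. Use of strand in counting, and tool versions, are not given in the sources used here, so counts of overlapping genes and near-identical copies are uncertain.

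Expected counts were rounded and fitted with edgeR 4.0.16 in R 4.3.3 (filterByExpr, minimum count 10, TMM, glmQLFit, glmQLFTest), with Benjamini-Hochberg adjustment over 14143 genes. The common biological coefficient of variation was 0.232. Standard errors and 95% intervals came from the F statistic. Ratios were compared by exact permutation over libraries. DESeq2 1.42.0, limma 3.58.1 on log2(TPM + 1) and log2(TPM + 0.1), median-of-ratios scaling, library totals, no filter, a replicate block and leaving out each library were alternatives. The test was tested on simulated data. The floor was 3 counts a library.

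The genes and lists were chosen with earlier results of these data known. Named genes were the 10 genes, *Tox*, the 6 pathway genes with the highest mean TPM, those with an unadjusted p under 0.05, and the 5 genes nearest to *Odc1*. Some items are not reported here. Genes outside this rule, such as those whose groups did not overlap, were named after their values were seen. Sequences and positions came from GENCODE M21 (GRCm38), with transcripts compared by blastn 2.17.0. At 95% identity over 200 bases or more, near-identical listed genes were found for *Oaz1*, *Amd1*, *Odc1* (*AW146154*, *Gm15645*) and *Sms* (*Gm8234*).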

Additional observations from a re-analysis of the deposited data

How the results depend on the processing

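Genes past an adjusted p of 0.05 numbered 0 in edgeR, against 512 at an unadjusted p under 0.05. They numbered 22 with DESeq2, 22 with no filter and 16 with the replicate block, and leaving out 1 library gave 1 to 600, the most without EV RV replicate 2. Of the 10 genes, 1 (*Oaz1-ps*) passed with DESeq2, with no filter and with the block, and 0 to 3 with 1 library left out. With 1 library left in a group, that library is assumed to vary like the others. Same-numbered libraries deviated together (r = 0.302 across genes), but 2 pairs with a number alone do not show a pairing, and the block changed no call among the 10 genes other than *Oaz1-ps* (adjusted p = 0.000102). *Oaz1* stayed negative in all 11 alternatives. The sum ran from -0.25 to -0.04, and between -0.23 and -0.11 with 1 library left out. For both, each Tox RV library was below each EV RV library in CPM, as for 17.4% of all genes tested. Leaving 1 library out could thus hardly change their sign, so the steady sign is no further result. *Oaz1-ps* was at 0 in both Tox RV libraries, so neither its fold change nor its share could take another sign. It had reads in EV RV alone, so the calls of *Oaz1-ps* above mark nothing out. The difference in the *Oaz1-ps* share was -1.99 to -0.551 percentage points, and that in the log2 ratio of *Odc1* to antizymes -0.032 to 0.44, with 1 library left out. Of 110 fold changes under alternatives, 24 changed sign, and the cause was not tested. With limma on log2(TPM + 1) and log2(TPM + 0.1) respectively, *Odc1* was at -0.0401 and -0.0402, *Oaz2* at -0.0662 and -0.0702, *Sms* at -0.0468 and -0.0475, *Sat1* at -0.0303 and -0.0308 and *Smox* at -0.0789 and -0.0832. *Oaz2* was at -0.0070 with DESeq2 and -0.0065 with median-of-ratios scaling. Library totals moved the median of all genes by 0.12 and put *Srm* at 0.043, or -0.081 relative to that median. With 1 library left out, *Odc1* ran from -0.15 to 0.24, *Oaz2* from -0.17 to 0.19, *Azin1* from -0.025 to 0.74, *Amd1* from -0.19 to 0.71, *Srm* from -0.17 to 0.0079, *Sms* from -0.17 to 0.24, *Sat1* from -0.064 to 0.17 and *Smox* from -0.13 to 0.16. With 2 libraries a group, small changes of these genes were not detectable.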
